A study of Mus musculus with 13 samples.

Results

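Cadherins, claudins, desmosomal cadherins and connexins are the transmembrane proteins through which neighbouring cells hold on to, seal against and exchange small molecules with each other. Their messenger RNAs were compared in mouse embryonic stem (ES) cells with and without an induced mutant form of the chromatin protein CTCF. The families were chosen with earlier results of these data known. Within them, genes were taken by name from the rows present in both count tables. Their symbol is Cdh, Cldn or Gja to Gje followed by a number, or Dsc or Dsg followed by a number. This gave 76 of the 24421 genes in the tables: 23 cadherins, 24 claudins, 9 desmosomal cadherins and 20 connexins.

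The cells were F1-2.1 ES cells from a CAST/Ei x 129/Sv/Jae cross, with the genotype Tet-on CTCF S224E. In these cells doxycycline (dox), a tetracycline-type drug, switches on a transgene for CTCF with the S224E change, a serine replaced by glutamic acid to mimic its phosphorylated form. All 4 RNA libraries came from 1 clone, A2, in which the native Ctcf gene had not been removed and the vector also makes EGFP with the transgene. The group called +dox here was given 1 μg/mL dox for 6 days (2 libraries), and the group called -dox was grown equally long without it (2 libraries). Both groups grew in serum and LIF on a layer of γ-irradiated mouse embryonic fibroblasts, which can add their own RNA to a culture's RNA. RNA of dox-treated cells lacking this transgene was not analysed here, and effects of dox or EGFP therefore cannot be told apart from those of the mutant protein.

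Classical cadherins bind the same cadherin on the next cell and are tied to actin through catenins, forming adherens junctions. Claudins form the strands of tight junctions and set which ions pass between cells, together with occludin and the ZO scaffold proteins. Desmogleins and desmocollins are the cadherins of desmosomes, which desmoplakin links to keratin filaments, and connexins assemble into gap junction channels. ES cells grow as compact, epithelium-like colonies held together by E-cadherin, and cells that leave the epithelial state in early development typically lose E-cadherin and gain N-cadherin.

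The libraries held 22899107 and 23136603 counted reads with dox and 30206085 and 24620964 without it, and the 76 genes took 0.115% to 0.148% of them. Levels are given as CPM, the gene's reads relative to the TMM-scaled total of the library, for 1 gene across libraries, and as RPKM, CPM per kilobase of transcript, between genes. A change is a log2 fold change of +dox over -dox from edgeR's quasi-likelihood test. Its standard error (SE) was derived from the F statistic of that test. A change is called at a Benjamini-Hochberg adjusted p under 0.01 over the 20044 genes with at least 1 count. DESeq2, the tool named in the study's methods, is given beside it. Ctcf itself, read from native gene and any matching transgene RNA together, was at 327 and 329 CPM with dox and 295 and 304 CPM without (log2 fold change 0.13, SE 0.09, edgeR adjusted p = 0.475). Of 12 ES cell markers none was at 0, and their summed level was 6890 and 7795 CPM with dox against 6300 and 6680 CPM without.

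The 250 bases before the annotated start are shown for the most abundant cadherin, the most abundant claudin and both claudins called by the test. They were read from the mm9 reference (NCBIM37, a C57BL/6J genome), not from these cells. Capitals mark CAGGTG (an E-box, the letters that Snail and Zeb repressors bind), GGGCGG (a GC box) and AGGNGGC (part of the CTCF motif), or their reverse complements. An E-box and the CTCF letters overlap where both are present as CAGGTGGC or its reverse complement.
Cdh1 (chr8:109127018-109127267, + strand): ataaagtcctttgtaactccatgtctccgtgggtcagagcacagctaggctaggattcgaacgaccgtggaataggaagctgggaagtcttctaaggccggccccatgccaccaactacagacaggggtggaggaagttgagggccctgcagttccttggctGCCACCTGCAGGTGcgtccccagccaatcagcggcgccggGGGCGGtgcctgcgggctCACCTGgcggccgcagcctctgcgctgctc
Cldn4 (chr5:135422805-135423054, - strand): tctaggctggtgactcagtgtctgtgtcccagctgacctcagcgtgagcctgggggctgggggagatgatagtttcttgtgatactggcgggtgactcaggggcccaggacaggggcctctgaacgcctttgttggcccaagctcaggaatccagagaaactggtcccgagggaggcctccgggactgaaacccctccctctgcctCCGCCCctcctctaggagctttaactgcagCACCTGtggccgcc
Cldn6 (chr17:23816082-23816331, + strand): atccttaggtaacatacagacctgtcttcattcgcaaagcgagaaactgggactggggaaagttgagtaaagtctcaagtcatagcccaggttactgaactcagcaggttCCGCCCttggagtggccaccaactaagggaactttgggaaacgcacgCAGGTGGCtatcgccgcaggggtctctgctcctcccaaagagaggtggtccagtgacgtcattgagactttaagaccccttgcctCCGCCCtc
Cldn7 (chr11:69778673-69778922, + strand): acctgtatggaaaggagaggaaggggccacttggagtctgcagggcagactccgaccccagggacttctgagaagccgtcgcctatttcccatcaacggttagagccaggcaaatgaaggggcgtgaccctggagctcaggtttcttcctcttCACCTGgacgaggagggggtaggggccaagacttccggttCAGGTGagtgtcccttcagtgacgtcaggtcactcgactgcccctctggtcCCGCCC

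The Cdh1 stretch holds 3 E-boxes, that of Cldn7 holds 2, and those of Cldn4 and Cldn6 hold 1 each, on either strand. The same stretch holds an E-box in 17% of the 24349 genes with a usable start and in 18 of the 76 members (23.7%). By family the share is 17.4% for cadherins, 25% for claudins, 11.1% for desmosomal cadherins and 35% for connexins. Of the members described below with a negative log2 fold change, Dsg2 also holds 1 E-box. Dsc2, Cldn3, Cdh24, Cdh10, Cdh2 and Gjc1 hold none. A GC box is in 41.6% of all stretches and in 39.5% of those of the members, and the CTCF letters are in 28.1% and 34.2%. These are matches of letters in a reference genome, and no binding was measured here.

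By level per length, each family was carried by a few genes. Cdh1 (E-cadherin) had a mean of 89.3 RPKM over the 4 libraries, far above Cdh3 (P-cadherin) at 17.3, Cdh2 (N-cadherin) at 5.71 and Cdh24 at 3.69 RPKM. Among claudins the order was Cldn4 at 50.8, Cldn6 at 27.3, Cldn3 at 15.4 and Cldn7 at 9.84 RPKM. Of the connexins, Gja1 was at 67.4, Gjb5 at 39.4 and Gjc1 at 24.4 RPKM, and Dsg2 at 8.39 RPKM made up 82.7% to 92.8% of the desmosomal cadherin signal. Cldn4 was above Cldn6 in all 4 libraries, whereas Cldn6 and Cldn3 were nearly level in +dox replicate 2, at 14.1 and 13.9 RPKM.

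Of the 76 genes, 64 had at least 1 count and 28 reached a mean of 1 CPM: 12 cadherins, 7 claudins, 2 desmosomal cadherins and 7 connexins. Of these 28, 21 were lower and 7 higher with dox. Over all 13911 genes at this level 6978 were lower and 6933 higher, which is the background for such counts here and below. The median log2 fold change was -0.42 for claudins, -1.01 for the 2 desmosomal cadherins, -0.23 for cadherins and -0.01 for connexins, against -0.00 over all 13911 genes at this level. Both +dox libraries lay below both -dox libraries for 13 of the 28, where 27.7% of all genes at this level do so, and above them for 4, where 26.1% do. edgeR called 2 members lower, Cldn6 and Cldn7, against 0.519% of all genes tested, and none higher, against 0.0798%. At an unadjusted p under 0.05 edgeR counted 10 of the 64 members tested lower, against 9.31% of all genes tested, and 4 higher (Cdh11, Cdh13, Cdh18 and Cdh26, which was under 1 CPM), against 8.48%. DESeq2 called 4 members lower (Cdh1, Cldn6, Cldn7 and Dsc2), against 1.28% of all genes, and none higher, against 0.589%.

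**Figure D1:**
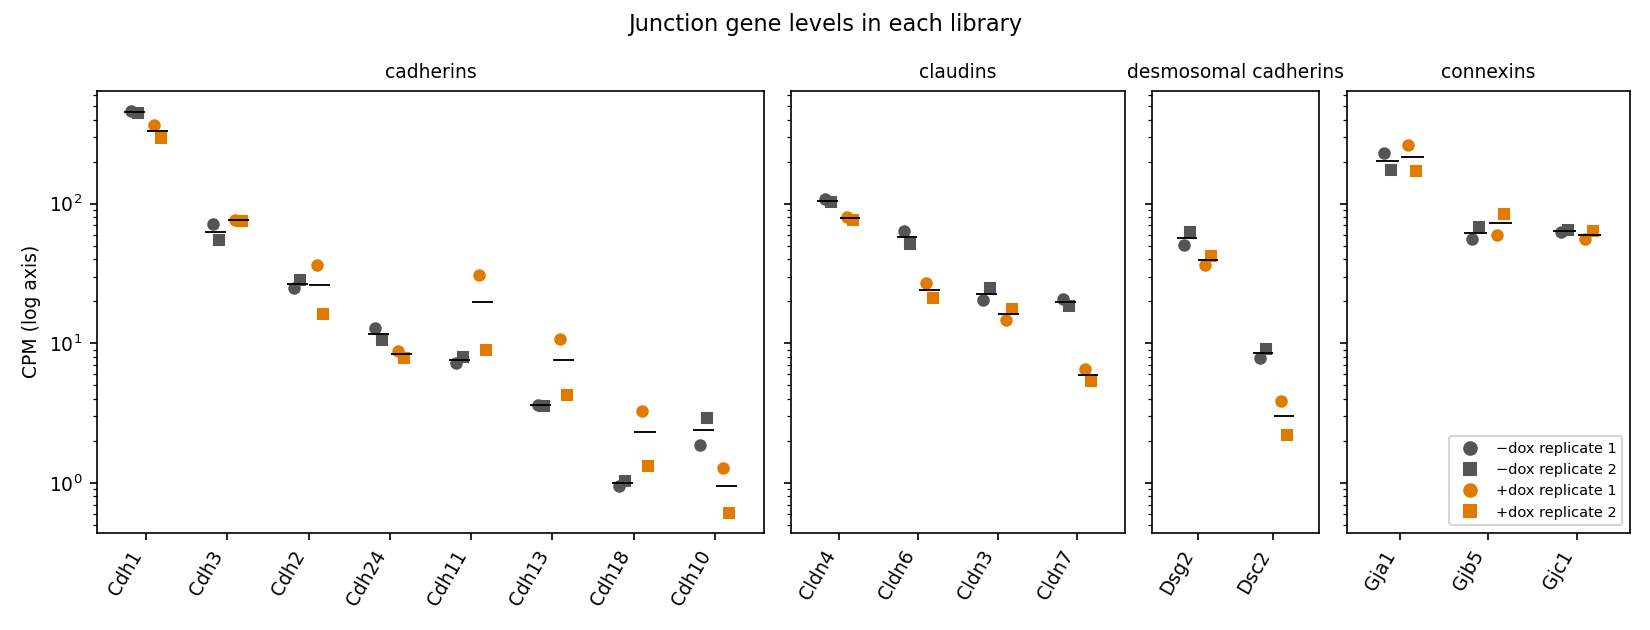
Levels of the 17 junction genes described one by one, in CPM on a log axis, in each of the 4 libraries (grey, without dox; orange, with dox; circles, replicate 1; squares, replicate 2; black lines, group means). The Cldn6 and Cldn7 points with dox lie well below those without, the groups of the 3 connexins shown overlap, and the circle of +dox replicate 1 stands apart for Cdh11, Cdh13 and Cdh18.

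Cdh1, which holds ES cell colonies together, was at 365 and 296 CPM with dox and at 464 and 445 CPM without. Both +dox libraries were below both -dox libraries, and the gap between the groups was only slightly wider than the gap between the +dox pair. The log2 fold change was -0.46 (SE 0.10), which DESeq2 called (adjusted p = 0.00886) and edgeR did not (adjusted p = 0.0372). Without +dox replicate 1 it was -0.62, and without +dox replicate 2 it was -0.32. Such fits keep 1 +dox library, which is assumed to vary like the -dox pair, so only sizes are given.

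Cdh3, the P-cadherin of epithelia and placenta, lies 46457 bases before Cdh1 on chromosome 8, with 1 annotated gene between them. It was at 76.8 and 75.7 CPM with dox and at 71.2 and 54.8 CPM without. Its groups did not overlap but nearly met, and the difference (log2 fold change 0.27, SE 0.13) did not pass the test (edgeR adjusted p = 0.295). Per length, the ratio of Cdh1 to Cdh3 within a library was 4.35 and 3.57 with dox and 5.96 and 7.44 without, so both +dox libraries were under both -dox libraries. The smallest p an exact permutation test of 2 against 2 libraries can give is above 0.05, and none was run on such ratios. As a share of the summed cadherin RPKM, Cdh1 took 64.3% and 66.9% with dox and 74.7% and 75.9% without.

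Cdh2, the N-cadherin of mesoderm and neural tissue, showed no common direction. It was at 36.2 and 16.2 CPM with dox and at 24.9 and 28.4 CPM without, so the highest and the lowest library were both +dox. The log2 fold change was -0.02 (SE 0.27, edgeR adjusted p = 0.972). It turned to 0.44 without +dox replicate 2, and to -0.72 without +dox replicate 1. Cdh24, a cadherin known to bind catenins, was at 8.79 and 7.88 CPM with dox and 12.8 and 10.6 CPM without (log2 fold change -0.49, SE 0.20, edgeR adjusted p = 0.211).

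Cdh11 (OB-cadherin, typical of mesenchyme and fibroblasts), Cdh13 (T-cadherin, which is held in the membrane by a lipid anchor) and Cdh18 were high in 1 library. Cdh11 was at 30.7 and 8.93 CPM with dox and at 7.24 and 7.93 CPM without. Cdh13 was at 10.8 and 4.29 CPM against 3.63 and 3.55 CPM, and Cdh18 at 3.29 and 1.31 CPM against 0.95 and 1.04 CPM. In all 3, +dox replicate 1 was far above the other libraries and +dox replicate 2 just above the -dox pair. The log2 fold changes were 1.39 (SE 0.40), 1.07 (SE 0.35) and 1.21 (SE 0.43), and none passed by edgeR (adjusted p = 0.0865, 0.1251 and 0.1505). Without +dox replicate 1 they were 0.24, 0.26 and 0.40.

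The same library was high in fibroblast markers. Over 20 such genes, collagens and Postn among them, the summed level was 1203 and 557 CPM with dox and 483 and 506 CPM without. Of the 18 at 1 CPM or more, 15 were higher with dox, and none of the 20 was at 0 in all libraries. edgeR called none in either direction (14 higher and 1 lower at an unadjusted p under 0.05, against 8.48% and 9.31% of all genes). DESeq2 called 1, Fbln1, lower, against 1.28% of all genes. The cultures held feeder fibroblasts, and their part in the levels of Cdh11, Cdh13 and Cdh18 was not tested. Here and below, more cells of a type and more RNA per cell cannot be told apart in RNA from whole cultures.

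Cdh10, a neural cadherin, was at 1.29 and 0.61 CPM with dox and at 1.87 and 2.91 CPM without, on 14 to 73 counts a library. The log2 fold change was -1.32 (SE 0.41, edgeR adjusted p = 0.105). Without +dox replicate 1 it was -1.94, and without +dox replicate 2 it was -0.88.

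**Figure D2:**
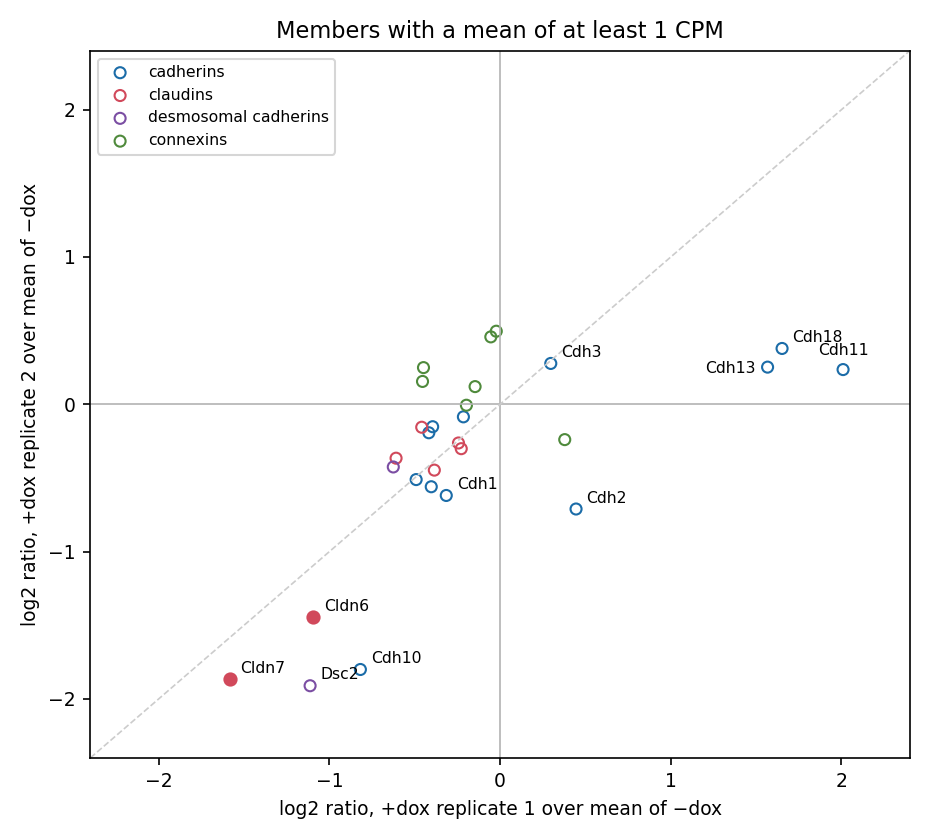
For the 28 members that averaged 1 CPM or more, the log2 ratio of +dox replicate 1 (horizontal axis) and +dox replicate 2 (vertical axis) to the mean of both -dox libraries. Filled points are the genes called by edgeR, Cldn6 and Cldn7, which lie near the dashed line of equal ratios, whereas Cdh11, Cdh13 and Cdh18 lie far to the right of it and Cdh2 has opposite signs on the 2 axes.

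All 7 claudins at 1 CPM or more were lower with dox. In 6 of them the groups did not overlap, where 27.7% of all genes at this level are lower without overlap. The summed level of the family was 156 and 149 CPM with dox and 246 and 232 CPM without. In each table taken alone the median log2 fold change of these 7 was -0.42 and -0.51.

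Cldn7, a claudin of epithelia that also binds EpCAM, was lowest relative to its -dox level. It was at 6.53 and 5.34 CPM with dox (147 and 122 counts) and at 20.9 and 18.6 CPM without (639 and 466 counts). Cldn7 fell by 1.73 on the log2 scale (SE 0.20), a 3.33-fold difference that both tools called (edgeR adjusted p = 8.76e-04, DESeq2 adjusted p = 1.92e-10). Cldn6, a claudin of embryonic epithelium, was at 26.9 and 21.1 CPM with dox and at 64.2 and 51.6 CPM without. Cldn6 fell by 1.27 on the log2 scale (SE 0.16), 2.41-fold, and was also called by both (edgeR adjusted p = 0.00167, DESeq2 adjusted p = 1.46e-09). For both genes the gap between the groups was larger than the spread within either. The calls were lost, at the same size and direction, when genes of low count were left out first by filterByExpr (edgeR adjusted p = 0.0215 for Cldn6 and 0.0130 for Cldn7) or with edgeR's adjusted deviances (0.0717 and 0.0426). Leaving out each library in turn gave log2 fold changes of -1.46 to -1.10 for Cldn6 and -1.89 to -1.60 for Cldn7. In each of these fits 1 group keeps a lone library, so only sizes are given.

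Cldn4 and Cldn3 are receptors of a Clostridium toxin and lie 39280 bases apart on chromosome 5. Cldn4 was at 80.4 and 77.0 CPM with dox and at 108 and 102 CPM without. Its groups were well apart, but the log2 fold change of -0.42 (SE 0.10) was not called at 0.01 (edgeR adjusted p = 0.0471, DESeq2 adjusted p = 0.0160). Cldn3 was at 14.7 and 17.5 CPM with dox and at 20.4 and 24.9 CPM without (log2 fold change -0.49, SE 0.17, edgeR adjusted p = 0.1499).

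The make-up of the family, computed from the same values, differed accordingly. Cldn4 took 50.9% and 51.1% of the summed claudin RPKM with dox and 41.2% and 41.6% without. Cldn6 took 20.5% and 16.9% against 29.6% and 25.3%, and Cldn7 took 5.74% and 4.91% against 11.1% and 10.5%. Within a library, the ratio of Cldn6 to Cldn4 per length was 0.403 and 0.330 with dox and 0.717 and 0.608 without, and that of Cldn7 to Cldn4 was 0.113 and 0.0962 against 0.269 and 0.252. The ratio of Cldn3 to Cldn4 was 0.263 and 0.326 against 0.272 and 0.350, with overlap between the groups.

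**Figure D3:**
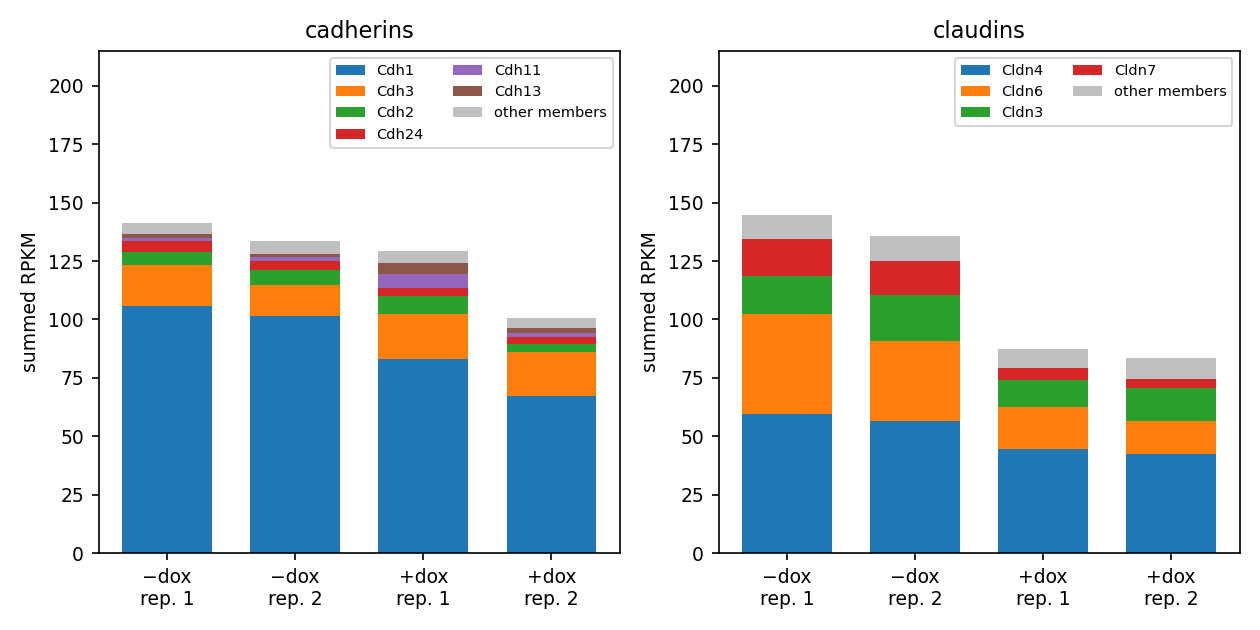
Summed RPKM of the cadherins (left) and claudins (right) in each library, stacked by gene, with all remaining members in grey. The claudin bars are shorter in both +dox libraries, with the Cldn6 and Cldn7 parts reduced most, and Cdh1 is the main part of every cadherin bar.

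Only 2 desmosomal cadherins reached 1 CPM. Both were lower with dox with no overlap between the groups, as are 27.7% of all genes at this level. Dsc2, the widely expressed desmocollin, was at 3.86 and 2.19 CPM with dox (87 and 50 counts) and at 7.82 and 9.13 CPM without (239 and 229 counts). The log2 fold change was -1.48 (SE 0.28), called by DESeq2 (adjusted p = 0.00250) and not by edgeR (adjusted p = 0.0190). Dsg2, the widely expressed desmoglein, was at 36.5 and 41.9 CPM with dox and at 50.4 and 62.9 CPM without. Its log2 fold change of -0.53 (SE 0.14) passed by neither (edgeR adjusted p = 0.0651, DESeq2 adjusted p = 0.0309). Without +dox replicate 1 it was -0.44, and without +dox replicate 2 it was -0.63. The 2 genes lie in 1 cluster with the other desmosomal cadherins on chromosome 18.

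For connexins no difference between the groups passed the test. The summed level was 558 and 540 CPM with dox and 549 and 512 CPM without. edgeR and DESeq2 called none of the 18 tested. At an unadjusted p under 0.05 edgeR counted 1 lower, Gjd2 at a mean of 0.0708 CPM, against 9.31% of all genes tested. Gja1 (connexin 43, the most studied gap junction protein) was at 261 and 170.0 CPM with dox and at 230 and 175 CPM without, with a log2 fold change of 0.09 (SE 0.17). Gjb5 was at 59.4 and 84.8 CPM against 56.2 and 67.7 CPM, with a log2 fold change of 0.22 (SE 0.16). Gjc1 (connexin 45) was at 55.7 and 63.5 CPM against 62.6 and 65.0 CPM, with a log2 fold change of -0.10 (SE 0.11). In these 3 the groups overlapped, and the edgeR adjusted p was 0.522 or more. Gja1 was highest in +dox replicate 1, the library high in fibroblast markers, and without that library its log2 fold change was -0.25. Its next highest level was in -dox replicate 1, which had the lowest fibroblast marker sum of all libraries (483 CPM). The part of fibroblasts in the level of Gja1 was not tested.

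The proteins that anchor these molecules were read from a list of 35 partner genes, of which 32 reached 1 CPM. Of these, 25 were lower and 7 higher with dox, with a median log2 fold change of -0.14. Both +dox libraries lay below both -dox libraries in 18 of the 32 and above them in 3, where 27.7% and 26.1% of all genes at this level do so. edgeR called 1 of the 34 tested lower, against 0.519% of all genes, and none higher (2 at an unadjusted p under 0.05), against 0.0798%. DESeq2 called 5 lower, against 1.28%, and 1 higher, against 0.589%.

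Cgn (cingulin, a tight junction scaffold protein) was at 27.1 and 23.2 CPM with dox and at 48.6 and 50.3 CPM without, and fell by 0.97 on the log2 scale (SE 0.13, edgeR adjusted p = 0.00295, DESeq2 adjusted p = 2.01e-07). DESeq2 also called Marveld2 (tricellulin, which seals corners where 3 or more cells meet) at -1.36 (edgeR adjusted p = 0.0161), Dsp (desmoplakin) at -0.72 (0.0288), Tjp3 (ZO-3) at -0.65 (0.0261) and Mllt4 (afadin) at -0.58 (0.0124). The 1 gene it called higher was Pvrl4 (nectin-4), at 10.3 and 13.1 CPM with dox and 5.93 and 4.90 CPM without (log2 fold change 1.11, SE 0.22, edgeR adjusted p = 0.0222).

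The catenins and ZO-1 showed smaller values. Ctnnb1 (β-catenin) was at 519 and 478 CPM with dox and at 594 and 591 CPM without (log2 fold change -0.25, SE 0.08, edgeR adjusted p = 0.137). Ctnna1 (α-catenin) had a log2 fold change of -0.20 (edgeR adjusted p = 0.257), Tjp1 (ZO-1) of -0.32 (0.157), Ocln (occludin) of -0.68 (0.0973) and Epcam of -0.39 (0.0614). Jup (plakoglobin), which serves both adherens junctions and desmosomes, was level in the 4 libraries, at 212 and 232 CPM with dox and 222 and 223 CPM without (log2 fold change -0.00, SE 0.09). Jam2, a junctional adhesion molecule, was at 205 and 301 CPM with dox and 163 and 207 CPM without, with overlap (log2 fold change 0.46, SE 0.16, edgeR adjusted p = 0.143).

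**Figure D4:**
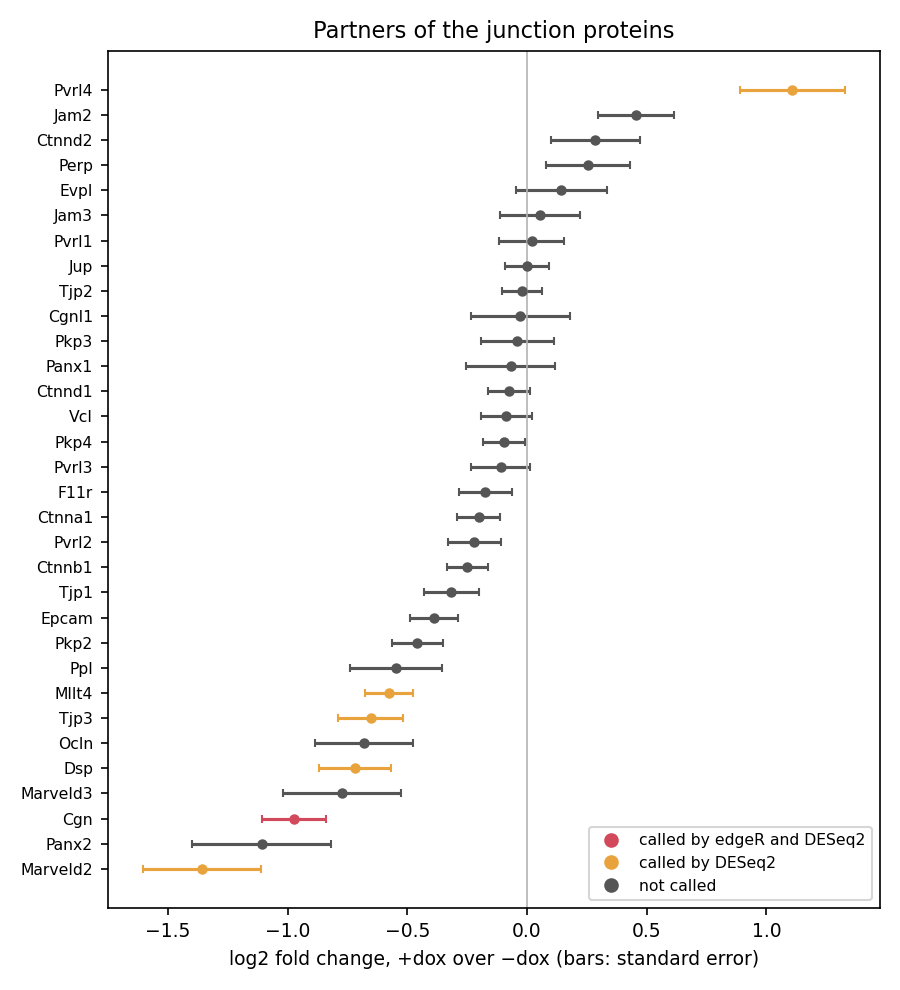
Log2 fold changes of the 32 partner genes at 1 CPM or more, +dox over -dox. Bars are 1 standard error derived from edgeR's F statistic, and colours mark the calls. Cgn is called by both tools, Marveld2, Dsp, Tjp3, Mllt4 and Pvrl4 by DESeq2 alone, and Jup lies at 0.

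Of 15 known regulators of junction genes, 14 reached 1 CPM, with 7 higher and 7 lower. edgeR and DESeq2 called none. At an unadjusted p under 0.05 edgeR counted 2 of the 15 higher (Snai2 and Twist1), against 8.48% of all genes tested. It counted 3 lower (Grhl2, Esrp1 and Esrp2), against 9.31%. Snai2 was at 4.62 and 1.53 CPM with dox and at 1.08 and 1.355 CPM without. It was thus high mainly in +dox replicate 1, the library high in fibroblast markers. Snai1, the Snail repressor that binds E-boxes in the Cdh1 promoter, was at 14.9 and 10.6 CPM with dox and at 10.6 and 9.68 CPM without (log2 fold change 0.33, SE 0.21, edgeR adjusted p = 0.459). Zeb1, a repressor of the same kind, was at 46.1 and 41.1 CPM with dox and at 34.1 and 37.6 CPM without (log2 fold change 0.28, SE 0.13, edgeR adjusted p = 0.286). Esrp2, a splicing factor of epithelial cells, was at 7.28 and 6.44 CPM with dox and at 11.4 and 13.9 CPM without (log2 fold change -0.88, SE 0.20, edgeR adjusted p = 0.0410).

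Markers of other cell states moved with these groups. Over 8 epithelial markers the summed level was 120 and 88.9 CPM with dox and 325 and 412 CPM without, and all 5 at 1 CPM or more were lower. Krt8 and Krt18, the keratin pair of simple epithelium, and Krt19 were called lower by both tools. Over all genes tested, edgeR called 0.519% lower and DESeq2 1.28%. Trp63 and Krt5, markers of stratified epithelium, were under 1 CPM in every library. Over 12 primitive streak and mesendoderm markers the sum was 46.9 and 44.6 CPM with dox and 178 and 208 CPM without. At 1 CPM or more 11 of 11 genes were lower, and edgeR called 7 lower, against 0.519% of all genes tested. Over 9 endoderm markers the sum was 14.7 and 15.4 CPM against 32.8 and 40.6 CPM, with 5 of 6 lower and Ttr at 0. Of these markers edgeR called 2 lower (Sox17 and Gata6), against the same 0.519%. The part of such cells in the lower levels of Cldn6, Cldn7, Cdh1, Dsc2 and Dsg2 was not tested.

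The remaining lists differed less. Over 8 endothelial markers the sum was 27.9 and 27.7 CPM with dox and 38.0 and 42.6 CPM without. Of these edgeR called 1 lower, Flt1, against 0.519% of all genes tested. Over 8 neural markers the sum was 295 and 301 CPM against 260 and 208 CPM, with all 4 at 1 CPM or more higher. Of these edgeR called 1 higher, Pax6, against 0.0798% of all genes tested. Of the 12 ES cell markers 10 were higher and 2 lower, with a median log2 fold change of 0.16. Neither tool called any of them. By edgeR 5 (Pou5f1, Zfp42, Dppa5a, Utf1 and Fgf4) were higher at an unadjusted p under 0.05, against 8.48% of all genes tested.

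**Figure D5:**
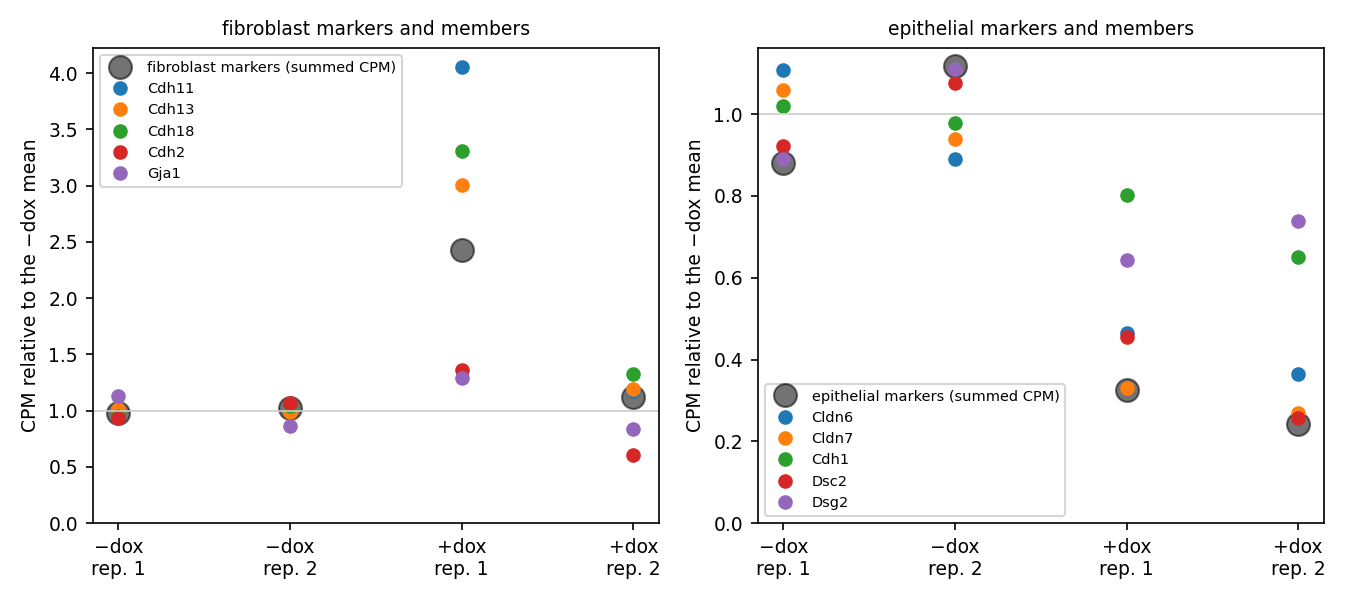
CPM in each library divided by the mean of both -dox libraries, for summed fibroblast markers with Cdh11, Cdh13, Cdh18, Cdh2 and Gja1 (left) and for summed epithelial markers with Cldn6, Cldn7, Cdh1, Dsc2 and Dsg2 (right). The fibroblast sum and the first 3 cadherins are high in +dox replicate 1 alone, whereas the epithelial sum and its 5 genes are low in both +dox libraries.

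Of the other 11 members at 1 CPM or more, 10 were lower and 1 higher, with log2 fold changes from -0.52 to 0.26 and no edgeR adjusted p under 0.384. A further 36 members had counts but a mean under 1 CPM, with at most 42 counts in any library, and none was called. The last 12 were at 0 in every library: 7 claudins, 3 desmosomal cadherins and 2 connexins. At this depth a count of 0 allows a level of up to 0.0982 to 0.133 CPM, by library, for counting error only. Exons of Cdh4, Cdh8, Cdh24, Cldn3, Cldn19, Dsg2 and Gjd2 overlap those of another annotated gene, and their counts are uncertain to that extent, since the use of strand in counting is not given in the sources used here.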

How the data were processed

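Polyadenylated RNA was sequenced as paired 50-nt reads from 2 +dox and 2 -dox libraries, described by the study as biological replicates; whether they came from separate cultures or days is not given in the sources used here. Per the study's methods, the authors removed adapters (cutadapt), mapped to mm9 (TopHat2), dropped PCR duplicates and let HOMER count the unique reads in each gene's exons. The deposited values are raw counts per gene, in 2 tables that each hold 1 +dox and 1 -dox library and were joined by gene symbol. The tables named different transcripts of 547 genes, 2 of them members (Cdh8 and Cdh16). Libraries within a group differed beyond sampling noise (chi-square per degree of freedom 19.2 with dox and 13.2 without).

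The deposited counts were tested with edgeR 4.0.16 in R 4.3.3 (TMM, quasi-likelihood test, 2 groups, genes with at least 1 count in 1 library), with the Benjamini-Hochberg adjustment over 20044 genes and a threshold of 0.01. DESeq2 1.42.0, DESeq2 size factors, filterByExpr, no filter, edgeR's adjusted deviances, a replicate block, a threshold of 0.05, a mean of 10 CPM, a prior count of 2 and leaving out each library were the alternatives. The scripts were first tested on simulated data. Genes described one by one were those called by either tool or under the block, the 4 of highest RPKM in a family (or all at 1 CPM where 4 or fewer reached it), and those at 1 CPM with a log2 fold change past 1 and 1 direction in both tables; of the partner and regulator lists, those called plus Ctnnb1, Ctnna1, Jup, Dsp, Tjp1, Ocln, Epcam, Snai1 and Zeb1. Results of some members that fall under this rule are not reported here. The members, lists and tests were chosen with earlier results of these data known. Grhl2 and Trp63 are in both the epithelial and the regulator lists, and Klf4 in both the ES cell and the regulator lists. Gene overlaps came from the GENCODE vM1 annotation. CPM, RPKM, medians and floors of 3 counts were computed from the counts, and floors cover counting error only. The SE is the size of the log2 fold change divided by the square root of the test's F statistic. The ChIP-seq and Hi-C libraries were not used here.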

Additional observations from a re-analysis of the deposited data

How the results depend on the processing

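Leaving out each library in turn gave 0 to 992 genes called (0 to 519 higher and 0 to 696 lower) against 120 (16 and 104), and 0 to 6 members lower and 0 to 3 higher against 2 and 0. In each of these fits 1 group keeps a lone library, which is assumed to vary like the pair of the other group. Numbers called therefore depend on which pair is left and are not comparable with those of the full fit. DESeq2 called 375 genes (118 higher, 257 lower) and 4 members lower. The threshold of 0.05 gave 573 genes (186 and 387) and 5 members lower. filterByExpr gave 11 genes (0 and 11), and adjusted deviances gave 0 (0 and 0); both gave 0 members lower, with 12 and 14 members and 3225 and 3254 genes at an unadjusted p under 0.05. Over members that averaged 10 CPM or more, the median log2 fold change was -0.49 for claudins, -0.53 for desmosomal cadherins (1 gene, Dsg2) and 0.041 for connexins, a turn in sign. Without single libraries it was -0.28 to -0.076 for cadherins, -0.63 to -0.34 for claudins and -0.15 to 0.16 for connexins, positive without +dox replicate 1 (0.16) or -dox replicate 2 (0.0072); the cause was not tested.

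Of 170 values for the 17 genes described one by one, 142 kept direction and side of the threshold, 15 newly passed it and 8 (Cldn6 and Cldn7) no longer did. The 5 turns in sign were those of Cdh2 (-0.72 to 0.44, above 0 without +dox replicate 2 and, at 0.074, without -dox replicate 2), Gja1 (-0.25 to 0.37, below 0 without +dox replicate 1 and, at -0.094, without -dox replicate 2) and Gjb5 (-0.060 to 0.45, below 0 without +dox replicate 2). DESeq2 size factors moved the median of all genes from -0.00 to 0.00.

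With the replicate number as a block, 786 genes (316 higher, 470 lower), 5 members lower (Cdh1, Cldn6, Cldn7, Dsc2 and Dsg2) and 1 higher (Cdh11) were called. The labels do not say that a number marks a shared day or culture. With 2 pairs, the deviations of same-numbered libraries from their group means correlated at 0.20 over genes and 0.02 over members.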
